A study of Mus musculus with 6 samples.

Results

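The farnesoid X receptor (FXR) bound chromatin near many genes that make no protein. In the 2 peak lists of FXR ChIP-seq from mouse liver, 4469 of 32535 peaks had a noncoding RNA gene as the nearest gene in the deposited annotation. A peak was taken when its assigned gene was typed as ncRNA, snoRNA or snRNA, or carried a microRNA symbol. The WT list held 626 microRNA peaks over 323 genes and 2117 peaks over 930 other noncoding genes, of 20040 peaks. The LKO list held 377 microRNA peaks over 221 genes and 1349 peaks over 722 other noncoding genes, of 12495 peaks. The choice rests on that annotation alone and says which of its gene starts was nearest, not which gene FXR regulates.

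FXR chromatin was immunoprecipitated from male C57BL/6 livers of 2 genotypes. WT animals were Bcl6 fl/fl, with both copies of Bcl6 floxed and intact. LKO animals were Alb-cre, Bcl6 fl/fl, in which Cre under the albumin promoter deletes Bcl6 in hepatocytes. All animals carried the floxed allele, their ages were not given in the sources used here, and the libraries were numbered 1 and 2 with no further account of the animals behind them. Each genotype had 2 ChIP libraries and 1 input library. The first WT library held 19022618 tags and the second only 2883717, whereas those of LKO held 21287263 and 22637613. Estimated from these totals, a median WT microRNA peak rested on 37.3 and 8.33 tags, and a median LKO microRNA peak on 34.8 and 32.2. These tables hold chromatin only, so neither the loss of Bcl6 nor the level of any RNA could be checked in them, and in whole liver a change in few cells and a change in every cell cannot be told apart.

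FXR is a bile acid receptor of the nuclear receptor family that pairs with the retinoid X receptor, and its preferred element is IR1, an inverted repeat of the hexamer AGGTCA with 1 base between the copies. BCL6 is a zinc-finger transcriptional repressor. MicroRNAs are short RNAs cut from hairpin precursors that often lie in introns of longer transcripts, and each silences messages that pair with its seed, bases 2 to 8. Long noncoding RNAs, antisense transcripts and small nucleolar RNAs act as RNA or as hosts of smaller RNAs, and many lie far from coding genes. In liver, miR-122 is the dominant hepatocyte microRNA, miR-33 is encoded inside the sterol regulator Srebf2 and represses cholesterol efflux, and miR-22 and miR-148a are abundant in hepatocytes.

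Mature products are printed first for 12 of the listed liver microRNAs, because these RNAs are what the genes beside the peaks make. Those of Mir22, Mir33, Mir148a, Mir21a, Mir103-2, Mir26b, Mir222, Mirlet7b and Mirlet7a-1 stand for stronger WT peaks. miR-107 and miR-221 are shown for a seed shared with one of these, although their own peaks were weaker, and miR-192 for the difference between genotypes at its weak WT peak. Other listed microRNAs, Mir122 and Mir378a among them, are not printed here. They were copied from RefSeq on GRCm38.p6, each 5′ to 3′ with the seed in capitals. Of 348 microRNA genes with a peak in either list, 314 had a mature sequence in that table.
miR-22-3p: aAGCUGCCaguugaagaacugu
miR-33-5p: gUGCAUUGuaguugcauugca
miR-148a-3p: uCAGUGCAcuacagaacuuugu
miR-21a-5p: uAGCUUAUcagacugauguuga
miR-103-3p: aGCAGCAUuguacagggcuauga
miR-107-3p: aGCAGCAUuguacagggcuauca
miR-26b-5p: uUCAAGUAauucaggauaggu
miR-221-3p: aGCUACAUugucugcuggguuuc
miR-222-3p: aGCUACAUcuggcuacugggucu
miR-192-5p: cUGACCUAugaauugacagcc
let-7a-5p: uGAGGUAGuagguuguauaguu
let-7b-5p: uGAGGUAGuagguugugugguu

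Seeds were shared by several genes with peaks. The 461 distinct seeds of the matched genes included 35 that 2 or more genes share, and 66 genes carried such a seed. The let-7 seed GAGGUAG joined 5 genes, Mirlet7a-1, Mirlet7b, Mirlet7c-2, Mirlet7g and Mir1961, with 8 WT peaks, 4 LKO peaks and 3 WT peaks that overlapped one of the LKO list. The seed GCAGCAU joined Mir103-1, Mir103-2 and Mir107, which have 5 WT and 3 LKO peaks. The seed GCUACAU joined Mir221 and Mir222, neighbours on the X chromosome, with 4 WT peaks and 1 LKO peak.

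The DNA under the peaks is shown for those with a close IR1 match. Each line gives 61 bases of mm10, plus strand, 5′ to 3′, with the 13-base best match within 100 bp of the peak centre in capitals. The motif searched was AGGTCA, any base, then TGACCT. It reads the same on both strands. An exact match lay under the peak in Grm8 assigned to Mir592, at chr6:27967991-27968051, under the peak in Itpr1 assigned to Mir7661, at chr6:108459050-108459110, and under an intergenic peak assigned to Mir222, at chrX:19273021-19273081. The peak upstream of Mir22, at chr11:75462667-75462727, and the one beside the Mir148a hairpin, at chr6:51269076-51269136, each had a best match with 2 mismatches.
Mir592: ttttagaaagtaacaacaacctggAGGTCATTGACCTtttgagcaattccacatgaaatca
Mir7661: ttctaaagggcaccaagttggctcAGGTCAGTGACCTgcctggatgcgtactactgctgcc
Mir222: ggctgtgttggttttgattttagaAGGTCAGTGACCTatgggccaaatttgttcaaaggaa
Mir22: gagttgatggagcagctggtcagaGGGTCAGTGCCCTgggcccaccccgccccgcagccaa
Mir148a: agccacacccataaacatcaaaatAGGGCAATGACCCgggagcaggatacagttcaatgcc

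Among the other noncoding genes, the 5 strongest WT peaks with at most 1 mismatch are shown with the peak inside Hnf4a that is assigned to the antisense gene Hnf4aos, whose match has 2. They lie at chr1:88269895-88269955, chr2:145675506-145675566, chr13:52009947-52010007, chr16:24090113-24090173, chr4:141560171-141560231 and chr2:163540813-163540873, in the order printed.
6430706D22Rik: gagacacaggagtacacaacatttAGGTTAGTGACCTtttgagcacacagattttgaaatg
BC039771: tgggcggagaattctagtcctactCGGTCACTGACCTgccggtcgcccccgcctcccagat
4921525O09Rik: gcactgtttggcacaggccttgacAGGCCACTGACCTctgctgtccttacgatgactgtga
Gm46545: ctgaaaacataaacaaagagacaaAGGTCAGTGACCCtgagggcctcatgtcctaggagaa
B330016D10Rik: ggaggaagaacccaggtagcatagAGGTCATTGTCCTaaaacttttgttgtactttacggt
Hnf4aos: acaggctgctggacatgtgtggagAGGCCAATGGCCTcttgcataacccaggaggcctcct

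With at most 2 mismatches in the 12 scored bases, 85 of 626 WT microRNA peaks held IR1 in the window of 100 bp each side of the centre, 13.6% (95% Wilson interval 11.1 to 16.5), as did 265 of 2117 other noncoding WT peaks, 12.5% (11.2 to 14.0). The share of the whole WT list was 11.8%. In the LKO list the shares were 19.1% (15.4 to 23.4) and 17.0% (15.1 to 19.1), against 16.2% of that whole list. Windows 2 kb away from the WT peaks held a match for 1.12% of the microRNA and 0.992% of the other noncoding peaks. With at most 1 mismatch, 4.63% (3.24 to 6.57) of WT microRNA peaks and 2.79% (2.17 to 3.58) of other noncoding peaks carried the element, beside 2.34% (2.13 to 2.58) of WT peaks at all other genes. The LKO shares at that setting were 6.63% (4.53 to 9.61), 3.85% (2.95 to 5.02) and 3.41% (3.08 to 3.77). At that setting the microRNA intervals, from 29 WT and 25 LKO matches, lay above those of the peaks at all other genes. With 2 mismatches allowed they overlapped, at 11.2 to 12.2 in WT and 15.4 to 16.7 in LKO for all other genes. The intervals treat peaks as independent, although several can lie at 1 gene, and no test of the difference was made. The 2 lists share sites and are not independent. The direct repeat AGGTCA, any base, AGGTCA lay within 100 bp of 12.6% of WT microRNA and 12.1% of other noncoding peaks, against 12.8% of the whole list and 2.88% and 3.78% of the windows 2 kb away.

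The element was more frequent under WT peaks that overlapped an LKO peak than under those that did not, with 17.7% against 10.3% for microRNA genes, 17.6% against 7.45% for other noncoding genes and 16.6% against 7.16% for the whole WT list. From the LKO side the shares were 18.1% of shared and 22% of unshared microRNA peaks, with 50 and 22 matches, and 17.6% and 14.7% for other noncoding genes.

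The element sat near the middle of the peaks. Its middle base lay within 25 bp of the centre in 61 of the 85 WT microRNA peaks and 186 of the 265 other noncoding peaks, 71.8% and 70.2%, and in 71.1% of such peaks over the whole list. Throughout, a level is the log2 ChIP value of a library minus the median, in that library, of the 9918 peaks present in both lists. The tables of the genotypes were normalized apart, so values set side by side across genotypes are a description with no test. LKO is called lower or higher at a peak where both of its libraries lay below or above both WT libraries after this centring, which held for 25.2% and 29.8% of all 9918 pairs. Peaks with the element had higher median levels. MicroRNA peaks with IR1 had median levels of -0.39 and -0.37 in the 2 WT libraries, and those without had -0.83 and -0.78. Other noncoding peaks with IR1 had medians of 0.30 and 0.36 in the 2 LKO libraries, and those without had -0.25 and -0.23. The whole lists showed the same order, with 0.27 and 0.29 against -0.24 and -0.24 in LKO.

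Peaks of both classes lay far from the starts of their assigned genes. For microRNA genes that start is the hairpin's, and not that of a longer host transcript. The median WT microRNA peak was 19015 bp from the start of its assigned hairpin and the median other noncoding peak 25007 bp, whereas peaks at all other genes lay at a median of 12775 bp. Within 1 kb of the assigned start were 57 WT microRNA peaks, 9.11% (7.09 to 11.6), and 186 other noncoding peaks, 8.79% (7.65 to 10.1), beside 17.97% (17.4 to 18.5) of the peaks at all other genes. Beyond 100 kb were 12.9% and 16.3% of the 2 classes, and 8.78% of the rest. The LKO list had the same profile, with 8.22% and 9.27% of the 2 classes within 1 kb, beside 17.8%.

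**Figure D1:**
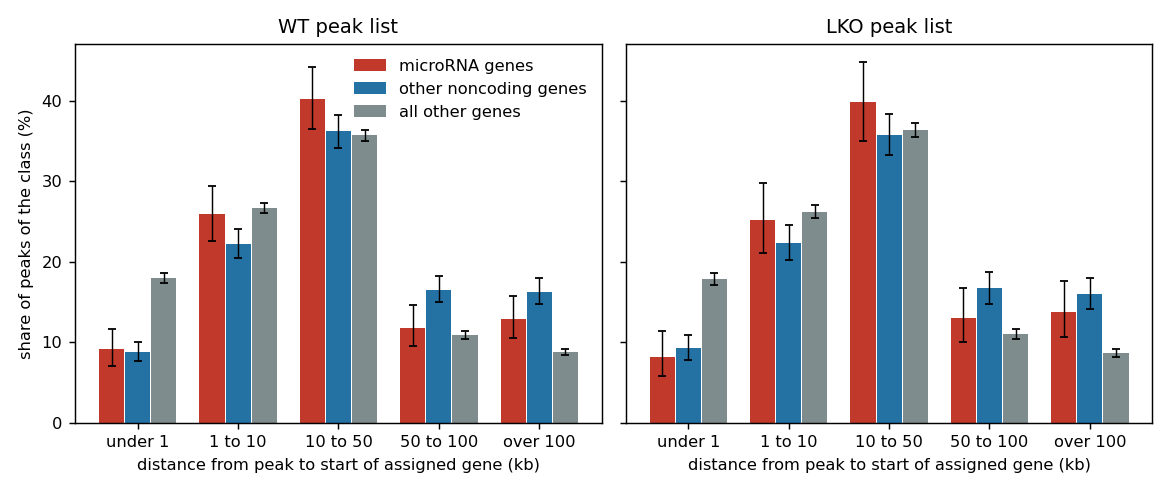
Share of peaks (%, vertical) by distance from the start of the assigned gene (kb, horizontal) for microRNA genes, other noncoding genes and all other genes in the WT and LKO lists, with 95% Wilson intervals. Under 1 kb the noncoding classes held 8.22% to 9.27% of their peaks and all other genes 17.8% to 17.97%, and over 100 kb the order was turned.

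The 2 classes differed in where they sat relative to coding genes. The centre of 388 WT microRNA peaks, 62.0% (58.1 to 65.7), lay inside a protein-coding gene, close to the 61.7% of peaks at all other genes, and 31.4% (29.4 to 33.4) of other noncoding peaks did. In LKO the shares were 64.7%, 30.8% and 62.7%. The hairpin itself lay in a coding gene for 454 of the 621 WT microRNA peaks whose gene was in the annotation, and for 330 of these the peak was inside that same gene. HOMER's annotation placed 51.2% of other noncoding WT peaks between genes, against 34.2% of microRNA peaks and 33.4% of the rest. Starts of coding genes were rarely close. A median of 37220 bp separated WT microRNA peaks from the nearest coding start, and 59568 bp separated other noncoding peaks, against 10066 bp for the rest. Peaks were assigned to the nearest start in the deposited annotation, so those close to a coding start mostly fell in the rest. The contrast in distance to coding starts therefore follows in large part from the choice of peaks and is not a separate result.

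Some peaks filed under a noncoding gene lay at a coding promoter. Of the 57 WT microRNA peaks within 1 kb of their hairpin, 17 were also within 1 kb of a coding start, as were 67 of the 186 other noncoding peaks. Coding starts were read from GRCm38.p6 and not from the deposited annotation. By them, a coding start was nearer than the assigned start for 92 WT microRNA peaks and 282 other noncoding peaks, 14.7% and 13.3%. The clearest case was Mir8114, whose peak covered the hairpin and was centred 102 bp upstream of Glul, which encodes glutamine synthetase. Its levels were 2.15 and 1.73 in WT and 1.99 and 1.98 in LKO, so the genotypes overlapped, and its LKO input value was above the 95th percentile of that list. Likewise, the WT peak over Mir5627 was centred 355 bp upstream of Dnajb9, a chaperone gene of the endoplasmic reticulum. The LKO input value at Mir5627 was also above the 95th percentile of that list. Across both lists, 8 WT and 5 LKO microRNA peaks covered a hairpin.

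A WT microRNA peak had a counterpart in LKO in 277 of 626 cases, 44.2% (40.4 to 48.2), with 1 bp of overlap enough. For other noncoding genes this was 1056 of 2117, 49.9% (47.8 to 52.0), and the share of the whole WT list was 49.5%. In the other direction 73.5% (68.8 to 77.7) of LKO microRNA peaks and 78.3% (76.0 to 80.4) of other noncoding peaks met a WT peak, against 79.4% of the whole LKO list. Sharing rose steeply with strength in every class. Among WT microRNA peaks it was 12.6% in the weakest quartile of the list and 89.1% in the strongest, and among other noncoding peaks 14.3% and 90.7%. WT microRNA peaks were weaker than the list median by a log2 of 0.09 (median -0.09), while other noncoding peaks were at 0.02. Both signs turned once the input value was subtracted, to 0.0066 and -0.023, so neither is a firm direction. A mix of peaks from the whole WT list with the strengths of the microRNA peaks would share 46.5%, and with those of the LKO microRNA peaks 78.0% in the LKO list. Both values lay between the share of the class and that of the whole list, and no test was made.

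**Figure D2:**
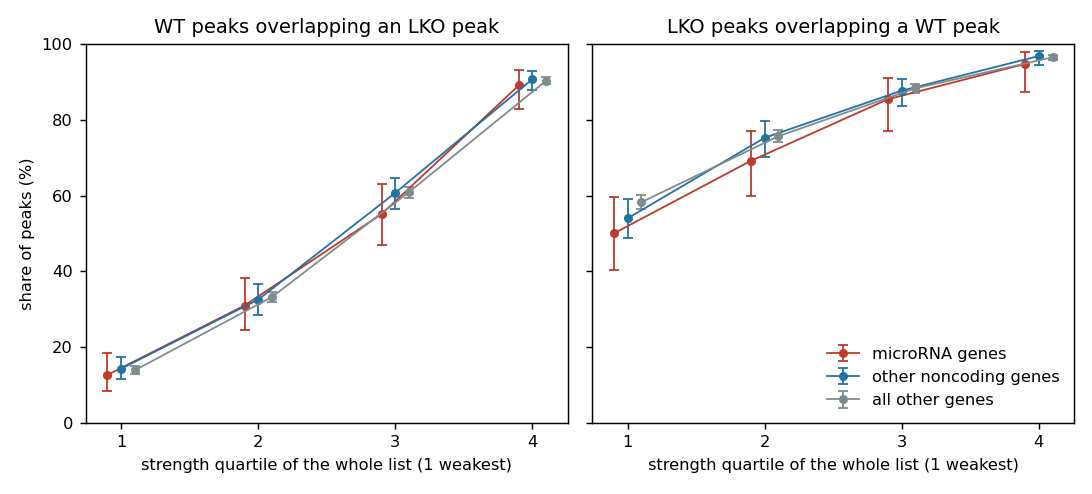
Share of peaks (%, vertical) that overlap a peak of the other genotype, by strength quartile of the whole list (horizontal, 1 weakest), for 3 gene classes with 95% Wilson intervals. WT shares climb from 12.6% to 89.1% for microRNA peaks and from 14.3% to 90.7% for other noncoding peaks, and the intervals of the 3 classes overlap in each quartile.

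Counted by gene, 196 microRNA genes had a peak in both lists, 127 in the WT list alone and 25 in the LKO list alone. For other noncoding genes these numbers were 648, 282 and 74. The genes in the WT list alone were 39.3% of the microRNA and 30.3% of the other noncoding genes of that list, beside 30.8% of all 9026 genes. Those in the LKO list alone were 11.3% and 10.2%, beside 9.15% of all 6878 genes. A peak missing from a list is one that did not pass the calling threshold there and is not shown to be unbound.

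The highest WT mean among shared microRNA peaks belonged to an intergenic peak assigned to Mir3966, at chr10:97249815-97250025, which lay 173558 bp from the hairpin. Its levels were 2.82 and 3.18 in WT and 3.16 and 3.40 in LKO, so the libraries of the 2 genotypes overlapped. The peak 756 bp past the start of Mir5100 was in Mief2, a mitochondrial fission gene, with 2.83 and 2.999 in WT and 2.31 and 2.37 in LKO. It was also centred 1021 bp past a coding start of Mief2. Both LKO values were below both WT values there, and the WT input value was above the 95th percentile of its list. The peak 26.9 kb from Mir365-2 went the other way, with 2.66 and 2.52 in WT and 3.18 and 3.34 in LKO.

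The fourth, 442 bp upstream of Mir3073a and inside the asparaginase gene Aspg, had 2.30 and 2.84 in WT and 2.40 and 2.25 in LKO, which overlapped. Its centre was 1111 bp past a coding start of Aspg. The fifth, 20.1 kb from Mir6389, stood at 2.45 and 2.66 in WT and 2.62 and 2.60 in LKO and overlapped too. Of these 5 peaks, Mir365-2 alone had IR1 with at most 2 mismatches.

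Close to a hairpin, the strong shared peaks beside those of Mir5100, Mir3073a and Mir8114 were at Mir7240 and Mir6392. Mir7240 lies in Mast3, a kinase gene, and its peak had 1.89 and 2.16 in WT and 1.28 and 1.21 in LKO. That peak was also centred 887 bp upstream of a coding start of Mast3. Mir6392 lies in Pnpla3, a lipid droplet gene linked to fatty liver, and its peak had 1.87 and 1.86 in WT and 1.69 and 1.79 in LKO. That peak was also centred 831 bp past a coding start of Pnpla3. In both the LKO values were below the WT values, by 0.78 and 0.12.

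A list of 55 microRNA symbols with known roles in liver or bile acid biology, some of them older names of the same gene, and every let-7 gene was fixed with earlier results of these data known. In the WT list 27 of its genes had 59 peaks, of which 23 were shared, and in the LKO list 16 genes had 30 peaks. For reference, 44.2% of all WT microRNA peaks and 49.5% of the whole WT list were shared. All 16 of the LKO genes had a WT peak as well. The median strength of the 59 WT peaks was 0.07 above the whole list's median and that of the 30 LKO peaks 0.12 above. IR1 lay under 8 of the 59 WT peaks, beside 13.6% of all WT microRNA peaks and 11.8% of the whole WT list.

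Mir22 had 1 peak, centred 1019 bp upstream of the hairpin in an intron of its host transcript Mir22hg, at chr11:75462592-75462802. Its levels were 2.40 and 2.21 in WT and 2.52 and 2.67 in LKO. This was the strongest peak of the list in both genotypes, it ranked 354 in the whole WT list and 239 in the whole LKO list, and both LKO values were above both WT values, by 0.29 on average (pooled SD 0.12). The whole WT peak is given here on the plus strand, with the IR1 match in capitals exactly at the centre.
Mir22 peak: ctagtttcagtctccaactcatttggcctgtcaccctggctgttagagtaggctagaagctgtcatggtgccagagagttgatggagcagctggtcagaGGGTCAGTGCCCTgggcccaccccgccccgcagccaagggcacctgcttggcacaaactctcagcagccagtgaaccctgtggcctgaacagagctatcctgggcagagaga

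Mir33 lies in an intron of Srebf2, the gene of the sterol-responsive factor SREBP2. The stronger of its 2 WT peaks, 14.3 kb upstream of the hairpin in the same gene, stood at 2.32 and 2.09 in WT and 1.27 and 1.49 in LKO. Both LKO values were lower, by 0.83 (pooled SD 0.16). The second WT peak, at -0.20 and 0.53, had no LKO counterpart, and neither peak had IR1 within 2 mismatches.

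Mir148a had 4 WT and 3 LKO peaks. The strongest, 796 bp from the hairpin start, stood at 1.70 and 2.00 in WT and 1.69 and 1.81 in LKO. The next was 218.8 kb away, carried IR1 with 1 mismatch, and stood at 0.39 and 0.43 in WT and 0.26 and 1.02 in LKO. The genotypes overlapped at all 3 shared peaks of the gene.

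Mir21a, whose product is raised in liver injury, had a shared peak in Vmp1 12.2 kb upstream of the hairpin with 1.05 and 1.59 in WT and 1.26 and 1.26 in LKO. Mir103-2, which with Mir107 targets insulin signalling, had one 20028 bp away with 1.04 and 1.42 in WT and 1.74 and 1.21 in LKO. The genotypes overlapped at both. Mir26b had one 3.1 kb away with 0.97 and 1.40 in WT and 0.81 and 0.48 in LKO, lower in both LKO libraries, and its LKO input value was above the 95th percentile.

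The exact match assigned to Mir222 lay under a WT peak 126.1 kb from the hairpin with levels of 0.91 and 0.57, and no LKO peak overlapped it. A weaker WT peak 90.9 kb away, with 0.20 and 0.08 in WT and 2 mismatches, was shared and stood at 0.57 and 1.06 in LKO. Exact matches were found under 5 WT microRNA peaks, 4 of 2117 other noncoding peaks and 37 of 17297 peaks at all other genes.

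Mir122, the hepatocyte microRNA, had 7 peaks in each list, and 5 of the WT peaks were shared. All of these lay upstream of the hairpin on chromosome 18, between 6937 and 27992 bp away. The strongest, 25986 bp away, stood at 2.24 and 2.19 in WT and 1.53 and 1.59 in LKO. The next, 22.6 kb away, stood at 2.02 and 2.40 in WT and 1.86 and 2.16 in LKO. The third, 27992 bp away, stood at 1.47 and 1.78 in WT and 1.08 and 0.96 in LKO, and the fourth, 17.1 kb away, at 1.39 and 1.29 in WT and 1.23 and 0.91 in LKO.

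The LKO mean was below the WT mean at all 5 shared Mir122 peaks, by 0.20 to 0.66. Both LKO values were below both WT values at 3 of them, beside 25.2% of all 9918 pairs. The 5 peaks lie upstream of the same hairpin, and no test was made. No peak of the gene in the WT list had IR1 within 2 mismatches. A weak peak centred 62 bp upstream of the hairpin was in the LKO list alone, at -0.49 and -1.60. Mir378a, in an intron of the metabolic coactivator gene Ppargc1b, had 7 WT and 3 LKO peaks. The strongest of these stood at 0.86 and 0.69 in WT and -0.01 and 0.02 in LKO, lower by 0.77, while the other 2 shared peaks were higher in both LKO libraries.

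Over the 23 shared peaks of the list, the LKO values were all above the WT values at 7, all below at 8 and overlapping at 8. Over all shared pairs, 29.8% were above and 25.2% below. The lowest differences were at Mir33 and Mir378a and the highest were at Mir143, 1.16, and Mir192, 0.86, where the WT peaks were weak.

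**Figure D3:**
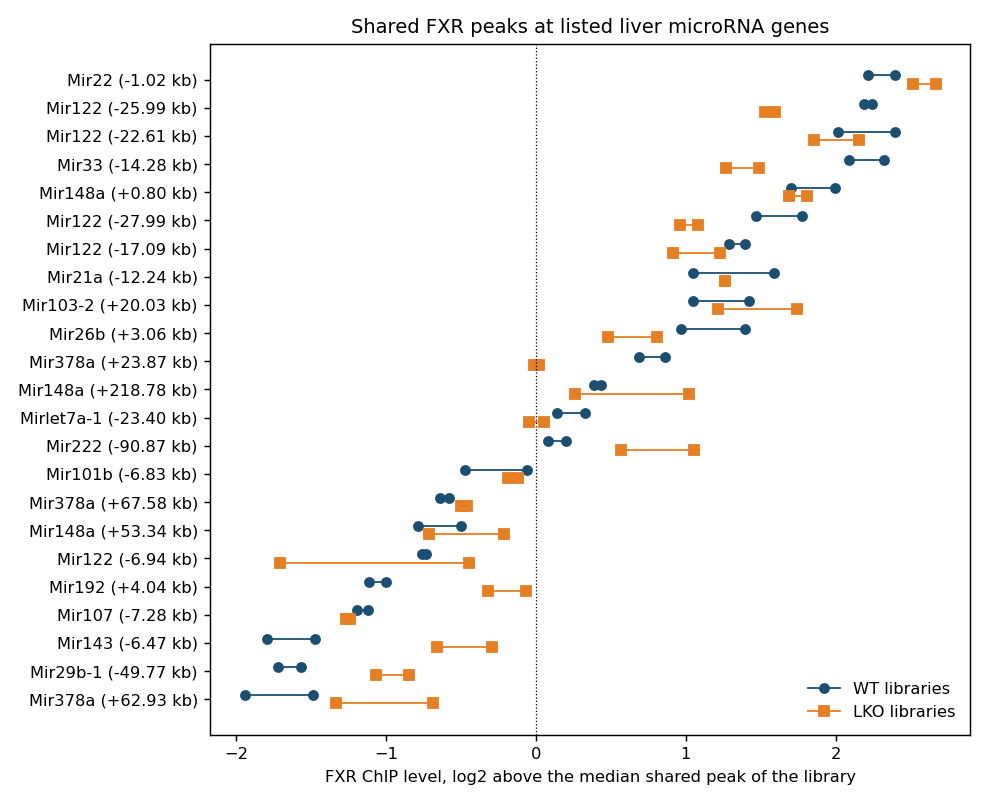
Level in each library (horizontal, log2 above the median shared peak) of the 23 shared peaks of the listed liver microRNA genes, ordered by WT mean, with distance from the hairpin start in kb; circles are the 2 WT libraries and squares the 2 LKO libraries. Mir22 is the highest row, with both LKO squares to the right of the WT circles, and the 5 Mir122 rows have their LKO means to the left of the WT means.

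The strongest WT microRNA peaks with no LKO counterpart were 3 peaks assigned to Mir101c at the proximal end of chromosome 9, with levels of 3.10 and 3.74, 3.01 and 3.59, and 2.86 and 2.97. All lay in mouse major satellite repeat (GSAT_MM), with 98.1% to 100% of their bases masked, and their WT input log2 values of 5.72, 3.91 and 6.23 were above the list's 95th percentile of 1.85. Mir101c had 5 WT peaks, all in satellite, and the input values of the other 2 were 0.03 and -0.43. In all, 6 of the 13 satellite-annotated peaks of the whole WT list were assigned to microRNA genes. The highest WT-only microRNA peak elsewhere, picked after its values were seen, was in Ccdc88c and assigned to Mir1190, with 2.17 and 1.91 and an input value of 1.87 that was also above the percentile. The strongest LKO-only microRNA peaks were at Mir6940 with 0.84 and 0.88, Mir378d with 0.46 and 0.92 and Mir3092 with 0.64 and 0.48, all much weaker.

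The microRNA genes with the most peaks were Mir3075, Mir7661 and Mir7237. Mir3075 had 11 WT peaks over 46.7 kb and 10 LKO peaks, with all 11 WT peaks inside Zmiz1, a transcriptional coregulator gene. Mir7661 had 11 WT peaks over 104 kb and 6 LKO peaks, with all 11 WT peaks inside Itpr1, the inositol trisphosphate receptor gene, including the exact IR1 printed above. That peak stood at 0.74 and 0.75 in WT and 0.81 and 0.83 in LKO, higher by 0.08. Mir7237 had 10 WT peaks over 137 kb and 6 LKO peaks around Banp and Zfp469. The peak in Grm8 with the other exact shared match, assigned to Mir592, stood at 1.37 and 1.55 in WT and 1.33 and 1.27 in LKO, lower by 0.16.

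Beside these and Mir222, the strongest WT peaks with at most 1 mismatch were at Mir7002 and Mir491, each with 1. The one in Aqr, assigned to Mir7002, stood at 1.201 and 1.65 in WT and 1.90 and 1.94 in LKO, higher by 0.49. The one in Focad, assigned to Mir491, stood at 0.82 and 0.56 in WT and was in the WT list alone.

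Over the 1056 shared other noncoding peaks the median of the deposited WT means was 5.28, and over the 277 shared microRNA peaks 5.21. The strongest shared peaks of the larger class, other noncoding genes, had higher WT means than those at microRNA genes. The first was at chr13:52022038-52022248, 74.6 kb from 4921525O09Rik, and ranked 15 in the whole WT list. It stood at 3.12 and 3.93 in WT and 2.49 and 2.47 in LKO, lower by 1.05. The peak of 9430078K24Rik, 62.7 kb away, stood at 3.11 and 3.57 in WT and 3.60 and 3.71 in LKO, higher by 0.32. The peak of A630001O12Rik stood at 3.13 and 3.47 in WT and 3.52 and 3.79 in LKO, higher by 0.36.

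Mkln1os, an antisense gene that starts beside Mkln1, had a peak 1209 bp from its start and 1264 bp upstream of the coding start. It stood at 3.14 and 3.42 in WT and 2.27 and 2.47 in LKO, lower by 0.91. The peak of A930001C03Rik stood at 2.91 and 3.64 in WT and 3.21 and 3.57 in LKO, which overlapped, and its WT input value was above the 95th percentile.

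Within 1 kb of a noncoding start, Bcas3os2, inside Bcas3, led with 2.61 and 3.09 in WT and 2.45 and 2.56 in LKO. The peak 515 bp upstream of 6430706D22Rik, with the 1-mismatch IR1 printed above, stood at 2.63 and 3.06 in WT and 2.60 and 2.29 in LKO, and its input value was above the 95th percentile in both lists. The LKO values were below the WT values at both. The peak of 2610203C22Rik stood at 2.52 and 2.84 in WT and 3.10 and 3.12 in LKO, higher by 0.43.

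Hnf4aos, antisense to the gene of the hepatocyte factor HNF4-alpha, had a peak 872 bp from its start with 2.42 and 2.78 in WT and 2.72 and 2.92 in LKO. Gm38431 had one 108 bp upstream, which is also 117 bp upstream of the coding gene Raver1, with 2.40 and 2.68 in WT and 2.19 and 2.51 in LKO, and its WT input value was above the percentile. The genotypes overlapped at both. Other noncoding peaks within 1 kb of their assigned start were shared in 103 of 186 WT cases, 55.4% (48.2 to 62.3). That interval includes the 49.5% of the whole WT list. These peaks stood 0.37 above the list median in WT, and those of the LKO list 0.13 above theirs. WT microRNA peaks within 1 kb were shared in 47.4% (35.0 to 60.1) and stood 0.10 above.

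BC039771 had the strongest of the close IR1 peaks after 6430706D22Rik, at 2.77 and 2.78 in WT and 3.08 and 3.11 in LKO. The 4921525O09Rik peak with 1 mismatch stood at 2.60 and 2.89 in WT and 2.00 and 2.16 in LKO, so both named peaks of that gene were lower in LKO. The peak at B330016D10Rik stood at 2.04 and 2.49 in WT and 2.17 and 2.28 in LKO and overlapped.

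Gm46545 lies in the intergenic stretch beside Bcl6, the deleted gene. It had 14 WT peaks over 188.8 kb and 5 LKO peaks, and Bcl6 had the nearest coding start for 8 of the WT peaks and 4 of the LKO peaks, 55.1 to 172 kb away in WT. The strongest carried the 1-mismatch IR1 printed above and stood at 2.30 and 2.58 in WT and 1.92 and 2.10 in LKO, lower by 0.43. Of the 14 WT peaks, 4 were shared, beside 49.9% of all other noncoding WT peaks.

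The genes with the most peaks of this class, beside Gm46545, were 2010106C02Rik, Gm30173 and A530013C23Rik. The first had 17 WT and 5 LKO peaks, all 17 inside the kinase gene Prkce, and its highest WT mean was 0.74. Gm30173 had 16 WT and 13 LKO peaks, of which 12 WT peaks were shared, and Foxo1, the insulin-regulated activator of gluconeogenesis, had the nearest coding start for all 16. IR1 lay under 6 of the 16, and the highest WT mean was 1.06. Of all other noncoding WT peaks, 49.9% were shared and 12.5% held IR1. A530013C23Rik had 14 WT and 5 LKO peaks, and Cebpb, a hepatocyte factor of the acute-phase response, had the nearest coding start for 13. Its highest mean was 1.74 in WT and 1.99 in LKO.

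The fixed list of 50 other noncoding symbols had 38 WT peaks over 18 genes and 27 LKO peaks over 16, with 22 shared. For reference, 49.9% of all other noncoding WT peaks and 49.5% of the whole WT list were shared. The strongest was centred 22 bp upstream of Snhg6, a small nucleolar RNA host gene, at 1.73 and 1.79 in WT and 1.51 and 1.38 in LKO. The LKO values were lower, and the input value was above the 95th percentile in both lists. Rpph1, the RNA of ribonuclease P, had a peak 221 bp from its start, which is 347 bp upstream of Parp2, at 0.70 and 0.68 in WT and 0.79 and 0.81 in LKO.

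Neat1, the scaffold RNA of nuclear paraspeckles, had 4 peaks in each list and 3 of the WT peaks were shared. The strongest, 4.6 kb upstream, stood at 0.84 and 1.19 in WT and 1.02 and 0.86 in LKO. The other shared peaks were centred 11.1 kb from the start, inside the gene, and 21.1 kb from it, annotated to the transcript end region, at 0.22 and 0.43 and at 0.29 and 0.08 in WT, and at 0.36 and 0.49 and at 0.55 and 0.35 in LKO. At its promoter the lists held neighbouring peaks that the rule of 1 bp of overlap did not match. The WT peak centred 150 bp upstream, at 0.77 and 0.63, and the LKO peak centred 419 bp upstream, at 0.74 and 0.81, did not overlap.

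Dleu2, a host of the miR-15a and miR-16 hairpins, had 2 shared peaks, at 0.65 and 0.12 and at 0.54 and -0.16 in WT and at 0.04 and 0.27 and at 0.49 and 0.60 in LKO. Kcnq1ot1, an imprinted antisense RNA, had 3, and the strongest stood at 0.21 and 0.58 in WT and -0.05 and 0.13 in LKO. Pvt1, the neighbour of Myc, had 5 WT and 4 LKO peaks, the strongest at 0.24 and -0.08 in WT and 0.57 and -0.16 in LKO. LKO means were above WT means at the 4 shared Pvt1 peaks, by 0.13 to 0.78. Both LKO values were above both WT values at 2 of them, beside 29.8% of all 9918 pairs.

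Snhg20 had a promoter peak at -0.25 and -0.10 in WT and 0.03 and -0.12 in LKO. Meg3, an imprinted RNA, had 6 WT peaks and 1 LKO peak, and the shared one stood at 0.22 and -0.75 in WT and -1.04 and -0.93 in LKO. Fendrr had the highest differences of the list, 1.27 and 1.14, at WT peaks of -0.38 and -1.14 and of -1.85 and -2.07. Over the 22 shared peaks of the list, the LKO values were all above at 7, all below at 4 and overlapping at 11. Beside these few peaks, 29.8% of all shared pairs were above and 25.2% below.

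**Figure D4:**
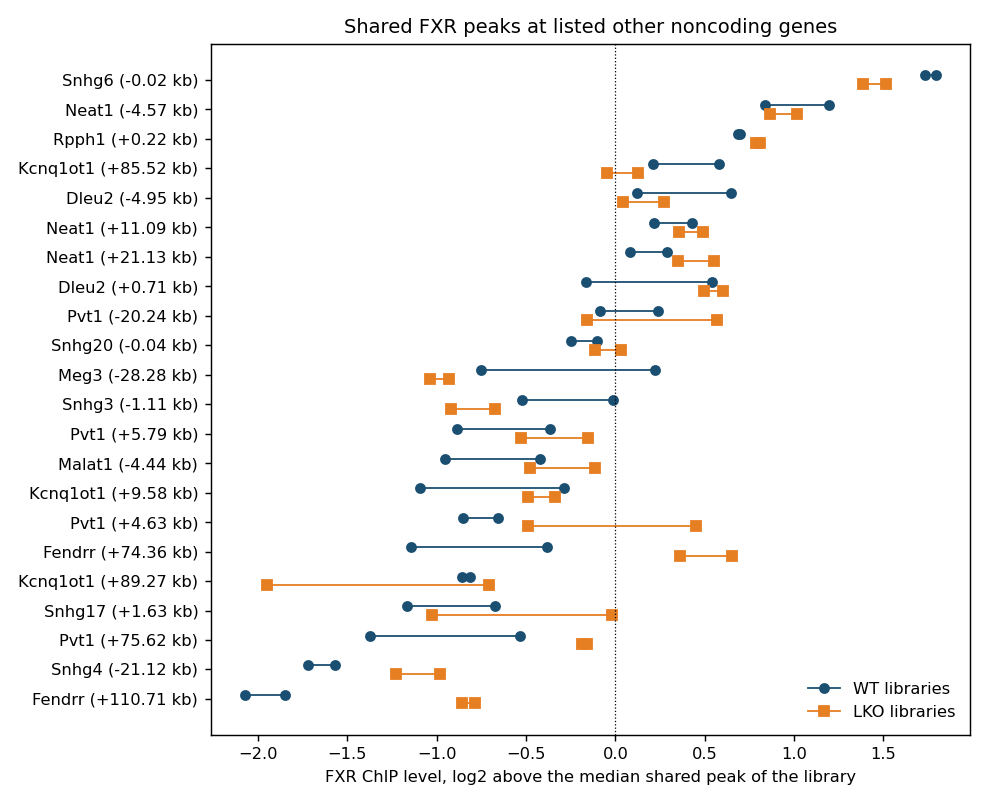
Level in each library (horizontal, log2 above the median shared peak) of the 22 shared peaks of the listed other noncoding genes, ordered by WT mean, with distance from the gene start in kb; circles are the 2 WT libraries and squares the 2 LKO libraries. Snhg6 is the highest row, with both LKO squares to the left of the WT circles, and the 2 Fendrr rows have both LKO squares to the right.

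Small nucleolar RNA genes had 31 WT and 17 LKO peaks. The strongest lay 28.8 kb from Snora26, carried IR1 with 2 mismatches and stood at 1.91 and 2.13 in WT and 2.43 and 2.56 in LKO. The only small nuclear RNA gene with a peak was Rnu12, a U12 splicing RNA gene, with 1.03 and 0.72 in the WT libraries. Genes with antisense or opposite-strand symbols had 117 WT peaks, 52.1% (43.2 to 60.98) of them shared, and Gm predicted genes 671, 49.6% (45.9 to 53.4) of them shared.

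The strongest WT-only peaks of the other noncoding class were at Zfhx2os, Rab10os and 1700034H15Rik. Zfhx2os, inside Zfhx2, stood at 2.85 and 2.81, Rab10os at 1.93 and 2.61 with an input value of 5.04 above the percentile and in the same satellite repeat as the Mir101c peaks, and 1700034H15Rik at 1.79 and 2.12. The strongest LKO-only peaks stood at 1.88 and 1.87 for 5031425F14Rik, whose input was above the percentile, at 1.40 and 1.77 for Gm32123 and at 1.69 and 1.32 for 2210417A02Rik.

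Over all shared peaks of each class, LKO and WT levels were compared after the centring. Because each library is centred on the median of all shared pairs, a class median near 0 says only that the class lies near the whole list, and not that levels were alike between genotypes. A difference here is the LKO mean level minus the WT mean level. The median was 0.02 for the 277 microRNA peaks (middle 50% from -0.31 to 0.38) and 0.00 for the 1056 other noncoding peaks (-0.34 to 0.41), beside 0.03 for all 9918 pairs. As deposited the class medians were -0.31 and -0.33, and centred on the mean of shared peaks -0.048 and -0.063. The typical spread within a peak, the pooled SD of its 2 library pairs, was 0.23 and 0.24. Both LKO values were above both WT values at 88 microRNA peaks, 31.8% (26.6 to 37.5), and 308 other noncoding peaks, 29.2% (26.5 to 32.0), and below at 69, 24.9% (20.2 to 30.3), and 283, 26.8% (24.2 to 29.6). These shares lay near the 29.8% and 25.2% of all pairs, which the intervals of both classes include. Without the shallow WT replicate 2 the shares were 43.0% and 33.2% for microRNA peaks and 40.0% and 36.8% for other noncoding peaks, while all pairs gave 41.1% and 35.3%.

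**Figure D5:**
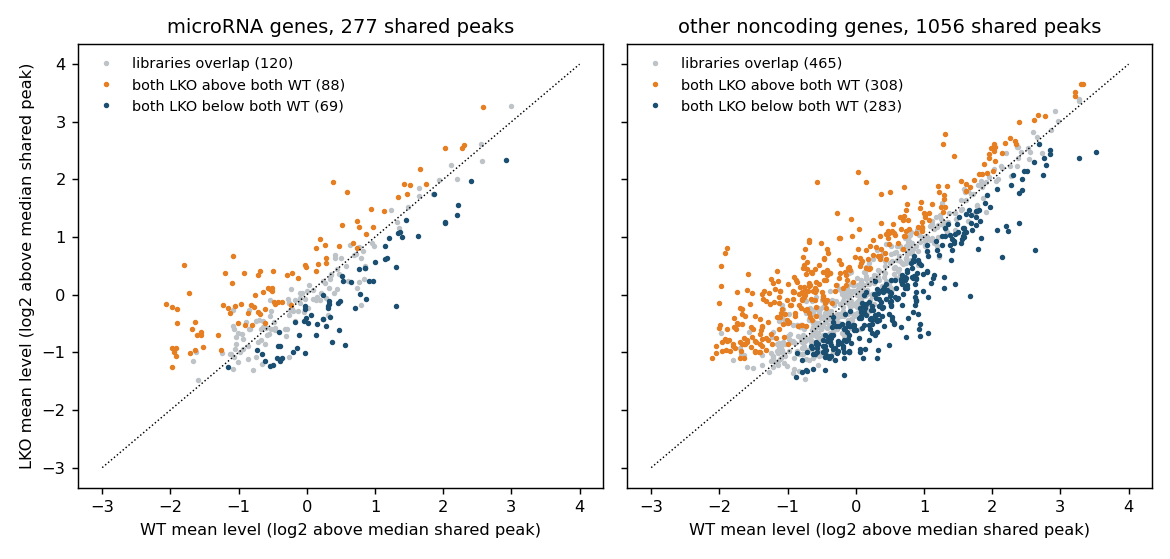
Mean LKO level (vertical) against mean WT level (horizontal), both in log2 above the median shared peak, for 277 shared microRNA peaks and 1056 shared other noncoding peaks, with the dotted line marking equal levels. Points above the line in orange, 88 and 308, have both LKO values above both WT values and points below it in dark blue, 69 and 283, have both below.

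The microRNA peaks with the highest difference were at Mir704, 2.32, Mir5129, 1.90, and a second Mir378d peak, 1.76, all weak in WT. Mir704 stood at -2.10 and -1.50 in WT and 0.48 and 0.54 in LKO. In WT replicate 2 these peaks rested on an estimated 4.91 tags at Mir704, 1.79 at Mir5129 and 2.56 at Mir378d. The lowest were at Mir568, in the hepatocyte repressor gene Zbtb20, Mir8110 and Mir708. Mir568 stood at 1.50 and 1.11 in WT and -0.41 and 0.02 in LKO, lower by 1.50, and its WT input value was above the 95th percentile. The differences of Mir8110 and Mir708 were -1.43 and -1.20.

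In the other noncoding class 1700016K05Rik had the highest difference, 2.69, with -1.72 and -2.06 in WT, the second from an estimated 3.34 tags, and 0.80 and 0.81 in LKO. Gm35978 and 9930014A18Rik followed with differences of 2.65 and 2.53. The last of these stood at -0.76 and -0.38 in WT and 1.77 and 2.15 in LKO, so it was among the stronger peaks of the LKO list, at rank 630. 4930547E08Rik stood at 2.74 and 2.51 in WT and 0.93 and 0.63 in LKO, lower by 1.84 and the lowest difference of the class. E130310I04Rik, inside the myosin kinase gene Mylk, and 1700123O12Rik followed with -1.73 and -1.70, each lower in both LKO libraries.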

How the data were processed

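FXR was measured by ChIP-seq in liver from WT and LKO mice, with 2 ChIP libraries and 1 input each. Chromatin was crosslinked with disuccinimidyl glutarate and formaldehyde and sequenced as 100 bp single-end reads. The authors aligned reads to mm10 keeping unique hits and 1 tag per position, and the submitters' processing notes name Bowtie 1.2 and HOMER 4.10. Per the file headers, peaks were called per genotype on pooled replicates against input, and the deposited log2 values per library are regularized values, normalized within each table to total tags. The deposited Peak Score is a pooled signal that the authors scaled to 10000000 tags. Columns of the authors' fold change against input and its p-values were not used.

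Peaks were matched by 1 bp of overlap. Levels were centred per library on the median of the 9918 shared pairs. Motifs, host genes and coding starts were read from GRCm38.p6, whose coordinates are those of mm10, with pysam 0.24.0 and Python 3.11.15. Shares carry 95% Wilson intervals, which cover counting error only and treat peaks as independent. Tag estimates are 2 to the power of the value, scaled by the library's total over the mean total of its table. The tables were normalized separately and hold regularized values, so no test between genotypes was run. Scripts were tested on simulated data. Named peaks in each class are those of a fixed gene list, the 5 strongest shared, the 3 strongest of 1 list only, the 5 strongest within 1 kb of a start, the 3 genes with most peaks, the 3 largest differences each way and the 5 strongest with at most 1 IR1 mismatch. Members and lists were chosen with earlier results of these data known. Alternatives changed the overlap, motif, strength, input and centring rules or left out a library.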

Additional observations from a re-analysis of the deposited data

How the results depend on the processing

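Of 96 alternatives, 55 left their value within its interval or spread and 41 moved it; the cause was not tested. Sharing of WT microRNA and other noncoding peaks was 71.5% and 75.6% among peaks at or above the list's median strength (whole list 75.5%) and 57.0% and 66.02% with each gene counted once (65.6%). In LKO these values were 89.5% and 92.3% (92.3%), and 83.3% and 85.2% (86.2%). IR1 with at most 1 mismatch lay under 4.63% and 2.79% of WT and 6.63% and 3.85% of LKO peaks. In the stronger peaks IR1 at 2 mismatches reached 17.3% and 15.3% in WT (whole list 15.4%) and, for other noncoding genes, 22.4% in LKO (21.5%). Counting 5 kb upstream as inside a coding gene gave 34.8% and 34.5% for other noncoding peaks in WT and LKO.

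The strength of microRNA peaks relative to the list was near 0 after subtracting the input, at 0.0066 in WT and -0.0075 in LKO, and was -0.10 in WT without Mir101c. In LKO it was -0.11 by the mean over peaks and -0.037 without high-input peaks. Leaving out a replicate gave -0.11 to -0.10 in WT and -0.083 to -0.077 in LKO. Other noncoding WT peaks stood at -0.023 after subtracting the input and 0.044 without high-input peaks, and LKO ones at -0.0096 to 0.0067 without 1 replicate.

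The median difference between genotypes changed sign with the centring. As deposited it was -0.31 for microRNA and -0.33 for other noncoding peaks, and centred on the mean of shared peaks -0.048 and -0.063. It was 0.054 for microRNA pairs of low input. Leaving out 1 library gave 0.015 to 0.063 and -0.010 to 0.042. Without WT replicate 2, both LKO values were above WT at 43.0% and 40.0% of microRNA and other noncoding peaks and below at 33.2% and 36.8%. The 10 alternatives on Mir101c, coding starts and these shares were chosen after seeing the data. No paired analysis was possible because no value here comes from a test, the genotypes being normalized in separate tables, and the shared numbers 1 and 2 are not tied to animals or batches. By same-numbered libraries the median differences were 0.08 and 0.05 for microRNA and 0.01 and 0.02 for other noncoding peaks. The 8.33 tags behind a median microRNA peak in WT replicate 2 limit single-peak differences.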
